A study of Mus musculus with 8 samples.

Results

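The transforming growth factor beta (TGF-beta), activin and myostatin pathway was examined through 10 listed genes in whole tibialis anterior muscle of aged mice. These were the ligand genes Tgfb1, Tgfb2, Tgfb3, Inhba and Mstn, the receptor genes Tgfbr1, Tgfbr2, Tgfbr3 and Acvr2b, and the antagonist gene Fst. They were chosen by symbol, with earlier results of these data known, and each of the 10 had a single probe set with 1 gene symbol. All 10 were among the 14814 genes tested, of 19752 genes with a value. Male C57BL/6 mice, aged 99 weeks per the labels and 22 months per the design text, had the muscle frozen for 8 s by a metal probe chilled with liquid nitrogen. The 4 arrays of the rIL-33 group came from mice given 2 µg of recombinant interleukin 33 into the peritoneal cavity on the day before and the day after injury, and the 4 arrays of the control group carry the treatment label PBS. Muscle was taken at day 8. Their genetic background is labelled C57BL/6 for replicates 1 and 2 of either group and WT for replicates 3 and 4. The sources used here do not say how WT differs from C57BL/6. All muscles were injured and all came from aged males. Nothing in the labels ties each array to a mouse of its own, so the p-values speak of the spread among these 8 samples, which may be technical.

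TGF-beta, activin and myostatin are secreted dimers. Each brings together type II and type I receptor kinases on the cell surface, which phosphorylate SMAD2 and SMAD3, and these enter the nucleus with SMAD4. Myostatin, made by muscle fibres, limits muscle mass, TGF-beta drives matrix production by fibroblasts and restrains myoblast differentiation, and follistatin (Fst) binds activins and myostatin and keeps them from their receptors.

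The stretches before the start sites of 3 of these genes are shown because Mstn had the largest treatment difference, Tgfbr2 the smallest p for treatment and Tgfbr1 the largest part of its variation between the background labels. RefSeq's promoter table (GRCm38.p6) held 7 of the 10 members, without Tgfb3, Tgfbr3 and Fst. The 250 bases before the start are printed 5′ to 3′. Capitals mark matches, searched on both strands, to the core of the element that SMAD proteins bind, with the letters CAGAC and called a SMAD box here. They also mark the E-box, CANNTG, to which myogenic transcription factors such as those of the MyoD family bind. The other motif marked is the TATA box of core promoters, searched as TATAAA. No match overlapped another in the printed stretches. Tgfbr1 has 2 start sites in the table, and the first by position is printed.
Mstn (chr1:53061390-53061639, + strand): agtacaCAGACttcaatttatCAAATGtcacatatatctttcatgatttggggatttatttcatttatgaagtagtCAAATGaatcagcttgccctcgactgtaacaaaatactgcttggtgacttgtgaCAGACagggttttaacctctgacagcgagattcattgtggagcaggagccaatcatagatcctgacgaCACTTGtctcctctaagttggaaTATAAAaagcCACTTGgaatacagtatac
Tgfbr2 (chr9:116175364-116175613, - strand): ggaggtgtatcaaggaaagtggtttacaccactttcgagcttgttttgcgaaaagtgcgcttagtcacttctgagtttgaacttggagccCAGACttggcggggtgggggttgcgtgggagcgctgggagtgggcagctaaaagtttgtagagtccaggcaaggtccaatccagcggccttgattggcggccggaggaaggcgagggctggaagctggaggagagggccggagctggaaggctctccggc
Tgfbr1 (chr4:47352972-47353221, + strand): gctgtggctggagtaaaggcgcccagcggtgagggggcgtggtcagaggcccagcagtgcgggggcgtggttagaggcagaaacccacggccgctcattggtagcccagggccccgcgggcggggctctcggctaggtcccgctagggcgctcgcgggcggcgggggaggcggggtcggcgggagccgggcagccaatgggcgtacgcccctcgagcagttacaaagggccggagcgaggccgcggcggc
The Mstn stretch held 4 E-box matches, 2 SMAD box matches and 1 TATA box match, and 38.4% of its bases were G or C. Tgfbr2 had 1 SMAD box match, 0 E-box matches and 58.4% G or C. The printed stretch of Tgfbr1 had 0 matches to each of these motifs and 74.8% G or C. Among all 32851 stretches of this length in the table, 42.2% held a SMAD box match, 66.2% an E-box match and 12.4% a TATA box match. A match is a description of the letters and not of a bound site.

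The arrays had 24922 probe sets each, their median intensities ran from 222.6 to 232.2, and array data give no read depth. Values of single genes below are log2 of the deposited intensity unless called an intensity, and their group levels are compared within a probe set only. Summed intensities of gene lists are on the linear scale and add up several probe sets, so bright genes weigh most in them. Markers of mature muscle fibres were present on all arrays: the lowest intensity of the 12 tested was 3120. In the comparison of rIL-33 with PBS, limma with Benjamini-Hochberg adjustment placed 1 of 14814 genes (0.00675%) past an adjusted p of 0.05, namely Retnla, a gene of alternatively activated macrophages (log2 difference 2.74). With the replicate number as a block, 0 genes passed in limma.

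None of the 10 members passed that threshold for rIL-33 against PBS. Their limma adjusted p lay between 0.489 and 0.953. Of the 10, 6 were lower with rIL-33 and 4 higher, with a median log2 difference of -0.16, beside a median of -0.01 over all genes, of which 52.0% were lower. At an unadjusted p under 0.05 stood 2 members, Tgfbr2 and Fst, both lower, against 9.63% of all genes in either direction and 5.24% lower. The groups did not overlap for 1 member, Fst, beside 4.57% of all genes in either direction and 2.13% lower. In whole muscle, fewer cells of a type and less RNA per cell cannot be told apart.

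**Figure D1:**
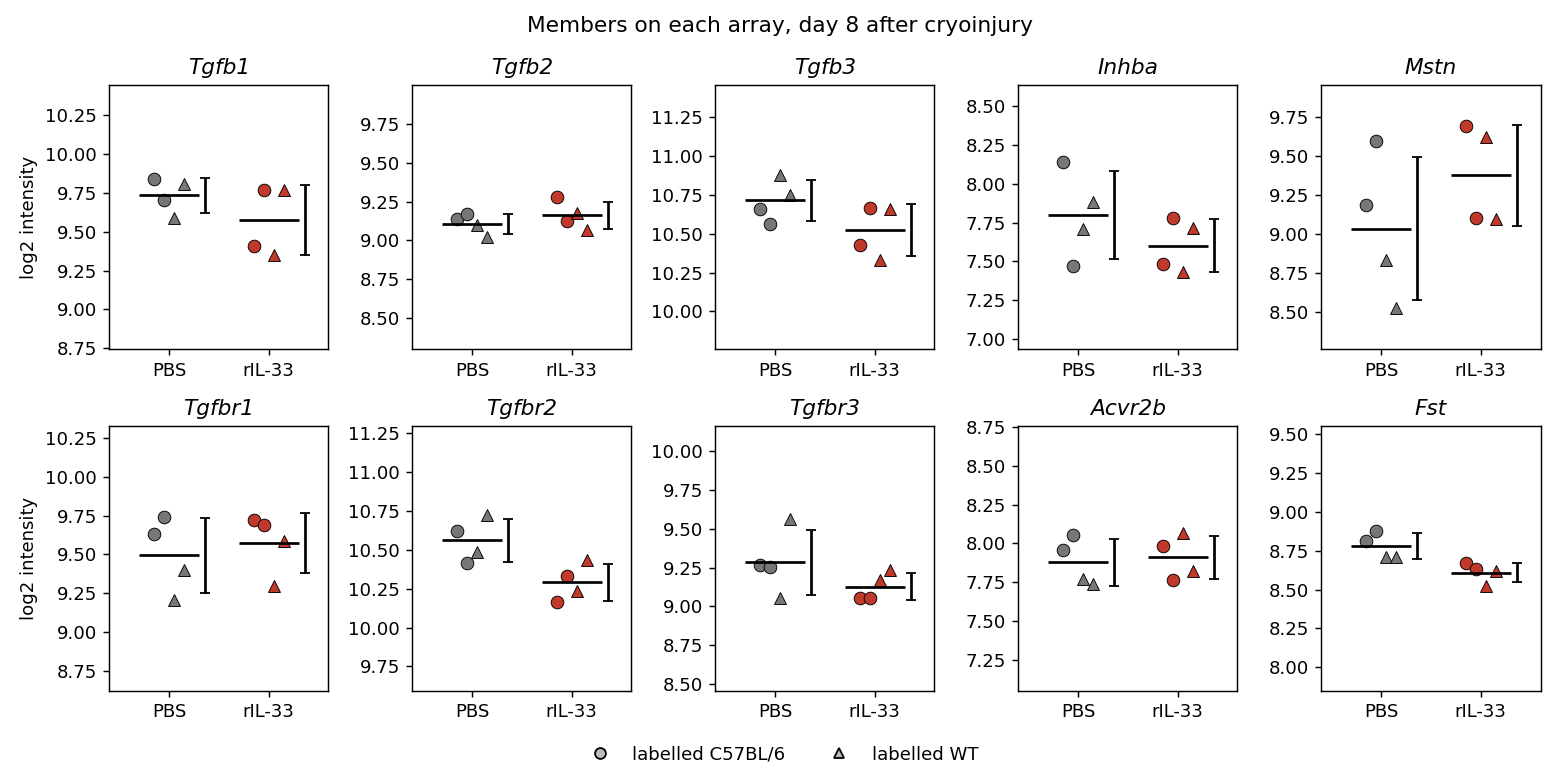
Log2 intensity of the 10 members on each array (y axis, the same span in every panel) for the PBS and rIL-33 groups; circles are arrays labelled C57BL/6, triangles arrays labelled WT, lines are group means and bars the SD (n = 4). Only for Fst do all 4 rIL-33 arrays lie below all 4 PBS arrays, and Mstn has the widest spread.

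Among the ligands, Mstn, which encodes myostatin, had the largest difference of all members. It stood at 9.18, 9.59, 8.83 and 8.52 on PBS replicates 1 to 4 and at 9.69, 9.10, 9.62 and 9.10 on rIL-33 replicates 1 to 4. The groups overlapped, since PBS replicates 1 and 2 lay above both lower rIL-33 arrays, while both WT-labelled PBS arrays lay below every other array. The mean was 9.03 ± 0.46 with PBS and 9.38 ± 0.32 with rIL-33 (SD, n = 4 each). The log2 difference of 0.34 (SE 0.22, 95% interval -0.15 to 0.84, limma adjusted p = 0.633) was a ratio of 1.27. Within the C57BL/6-labelled arrays it was 0.01 and within the WT-labelled arrays 0.68. Leaving out single arrays moved it between 0.17, without PBS replicate 4, and 0.53, without PBS replicate 2, and array weights gave 0.14.

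Inhba encodes the beta A subunit that forms activin A. Its level was 8.14, 7.47, 7.71 and 7.88 on PBS replicates 1 to 4 and 7.49, 7.78, 7.43 and 7.71 on the rIL-33 replicates in the same order. PBS replicate 1 was the highest of the 8 arrays, and PBS replicate 2 lay among the lowest, so the groups overlapped over most of their range. The difference was -0.20 (SE 0.14, 95% interval -0.50 to 0.11, limma adjusted p = 0.666), with -0.17 within the C57BL/6 label and -0.22 within the WT label. It was -0.08 without PBS replicate 1, -0.31 without PBS replicate 2 and -0.08 with array weights.

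Of the 3 TGF-beta genes, Tgfb1 and Tgfb3 had lower means with rIL-33 and Tgfb2 a higher one, none past the threshold. Tgfb1, the isoform most tied to fibrosis and made by macrophages among other cells, stood at 9.84, 9.70, 9.59 and 9.81 with PBS and at 9.41, 9.77, 9.35 and 9.77 with rIL-33. Here rIL-33 replicates 1 and 3 were below all PBS arrays and replicates 2 and 4 were among them. The difference was -0.16 (SE 0.11, 95% interval -0.41 to 0.09, limma adjusted p = 0.668), with -0.18 and -0.14 within the C57BL/6 and WT labels. It was -0.11 without rIL-33 replicate 1, -0.09 without rIL-33 replicate 3 and -0.07 with array weights. Tgfb3, an isoform of mesenchymal tissue, was at 10.66, 10.56, 10.88 and 10.75 with PBS and at 10.43, 10.66, 10.33 and 10.66 with rIL-33. Both WT-labelled PBS arrays lay above every rIL-33 array, and the C57BL/6-labelled ones did not. Its difference was -0.19 (SE 0.10, 95% interval -0.42 to 0.03, limma adjusted p = 0.556), with -0.07 within the C57BL/6 label, -0.32 within the WT label and -0.09 with array weights. Tgfb2, the isoform that needs the co-receptor betaglycan to bind well, varied least of all members, with an SD of 0.08 over the 8 arrays. It lay between 9.02 and 9.17 with PBS and between 9.07 and 9.28 with rIL-33, and its difference was 0.06 (SE 0.07, 95% interval -0.11 to 0.22, limma adjusted p = 0.859). With single arrays left out it ran from 0.02, without rIL-33 replicate 1, to 0.09, without rIL-33 replicate 4.

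Of the receptors, Tgfbr2, the type II receptor that binds TGF-beta first, had the smallest p of the members. PBS replicates 1 to 4 stood at 10.62, 10.42, 10.48 and 10.73, and rIL-33 replicates 1 to 4 at 10.16, 10.33, 10.24 and 10.43. A single pair of arrays kept the groups from separating, as rIL-33 replicate 4 lay just above PBS replicate 2. The mean was 10.56 ± 0.14 with PBS and 10.29 ± 0.12 with rIL-33 (SD, n = 4 each), a ratio of 0.83. The difference was -0.27 (SE 0.09, 95% interval -0.47 to -0.07), and did not pass over all genes (limma adjusted p = 0.489). The exact two-sided permutation test over the 70 assignments of the arrays gave p = 0.0571, unadjusted, where the smallest possible is 0.0286. The difference was -0.27 within each background label, and between -0.32 and -0.22 with single arrays left out.

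Tgfbr1 encodes the type I kinase (ALK5) that Tgfbr2 activates. It stood at 9.63, 9.74, 9.21 and 9.40 with PBS and at 9.72, 9.69, 9.30 and 9.58 with rIL-33. High and low arrays followed the background label and not the treatment: the 4 C57BL/6-labelled arrays were all above the 4 WT-labelled ones, a separation by label that 20.2% of all genes showed in one direction or the other. Between treatments the difference was 0.08 (SE 0.13, 95% interval -0.21 to 0.37, limma adjusted p = 0.896), and without PBS replicate 3 it turned to -0.02. Within the C57BL/6 and WT labels it was 0.02 and 0.14.

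Tgfbr3, the co-receptor betaglycan, was at 9.27, 9.26, 9.06 and 9.56 with PBS and at 9.06, 9.06, 9.17 and 9.23 with rIL-33. PBS replicate 4 was the highest array, and PBS replicate 3 was level with the lowest rIL-33 arrays. The difference was -0.16 (SE 0.10, 95% interval -0.39 to 0.08, limma adjusted p = 0.645), and -0.06 without PBS replicate 4. Acvr2b, the type II receptor of activins and myostatin, stood at 7.96, 8.05, 7.77 and 7.74 with PBS and at 7.98, 7.77, 8.07 and 7.83 with rIL-33. These ranges lay almost on each other. Its difference of 0.03 (SE 0.10, 95% interval -0.19 to 0.25, limma adjusted p = 0.953) had no stable direction: it was -0.13 within the C57BL/6 label, 0.19 within the WT label and -0.05 with array weights.

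Fst, the antagonist, was the member whose treatment groups did not overlap. It stood at 8.81, 8.88, 8.71 and 8.71 on PBS replicates 1 to 4 and at 8.67, 8.63, 8.52 and 8.62 on rIL-33 replicates 1 to 4. The gap between the lowest PBS array and the highest rIL-33 array was small beside the spread within each group. The means were 8.78 ± 0.08 and 8.61 ± 0.06 (SD, n = 4 each), a ratio of 0.89 and a log2 difference of -0.17 (SE 0.07, 95% interval -0.33 to -0.01). It did not pass over all genes (limma adjusted p = 0.509), and the exact two-sided permutation test gave p = 0.0286, unadjusted and the smallest it can give. The difference was -0.20 within the C57BL/6 label and -0.14 within the WT label.

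**Figure D2:**
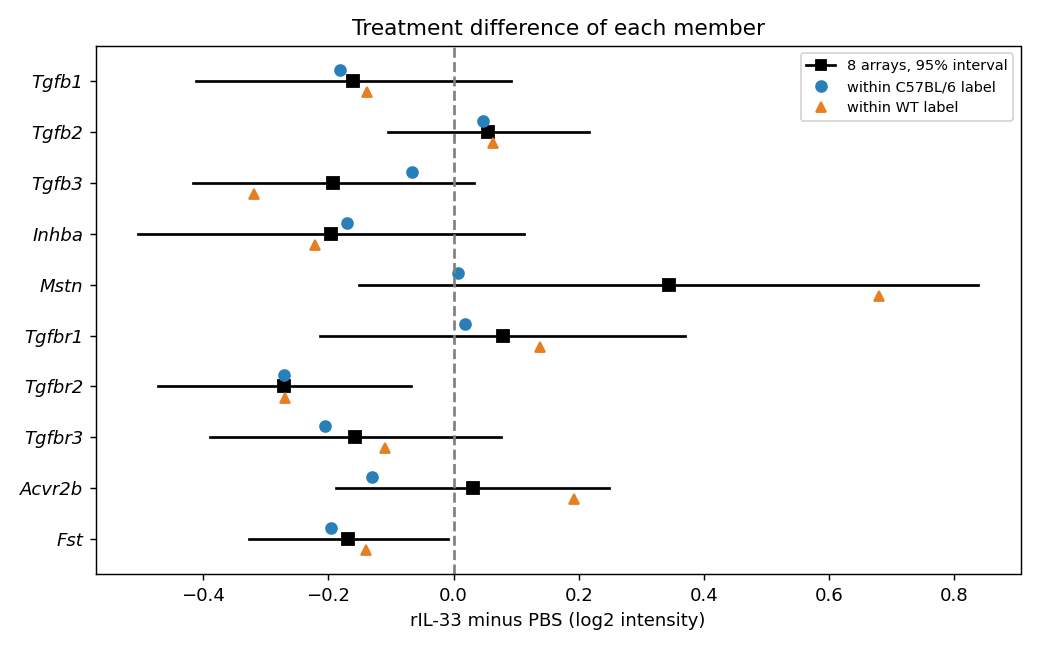
Difference of each member, rIL-33 minus PBS (x axis, log2 intensity): squares with bars are the limma estimate over 8 arrays and its 95% interval, circles and triangles the differences within the C57BL/6-labelled and WT-labelled arrays (2 against 2 each). The intervals of Tgfbr2 and Fst lie below 0 before adjustment over all genes, and Mstn has the widest interval.

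Within the rIL-33 group, single arrays stood apart in several members at once. Replicates 1 and 3, which carry different background labels, were the lowest of that group in Tgfb1, Tgfb3, Tgfbr2 and Inhba, and the highest in Mstn, Tgfb2 and Acvr2b. Among the PBS arrays, replicate 2 was the lowest in Inhba, Tgfb3 and Tgfbr2 and the highest in Mstn, Acvr2b, Tgfb2, Tgfbr1 and Fst. The summed intensity of the 12 mature muscle fibre markers was 130734, 121022, 124962 and 115948 on rIL-33 replicates 1 to 4, and 124671, 125115, 112555 and 106939 on PBS replicates 1 to 4. That of the 13 macrophage markers was 17103, 21042, 16547 and 22162 with rIL-33 and 24656, 21563, 20947 and 25022 with PBS. In the rIL-33 group the macrophage sums were lowest, and the fibre sums highest, on replicates 1 and 3. In the PBS group the fibre sum was highest on replicate 2. The macrophage sum of the PBS group was lowest on replicate 3 (20947), with replicate 2 next (21563). The part of these cells in the members' values was not tested.

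The members were also set by background label, WT against C57BL/6, in a fit with treatment as a covariate. Tgfbr1 was lower in the WT-labelled arrays and was the 1 member of 10 past an adjusted p of 0.05, where 9.40% of all genes passed and 6.20% were lower. Its mean was 9.70 ± 0.05 in the C57BL/6-labelled arrays and 9.37 ± 0.16 in the WT-labelled ones (SD, n = 4 each), a difference of -0.32 (SE 0.08, 95% interval -0.51 to -0.14, limma adjusted p = 0.0422). The call was lost after quantile normalization (-0.23, limma adjusted p = 0.0962) and cyclic loess normalization (-0.22, limma adjusted p = 0.0976). It was also lost without any one of the 4 PBS arrays or of rIL-33 replicates 1 and 3, with limma adjusted p between 0.0719 and 0.117 and the same direction throughout. Mstn was lower by a larger amount with WT, -0.37 (SE 0.19, limma adjusted p = 0.200), and did not pass, except without rIL-33 replicate 2 (-0.56, limma adjusted p = 0.0448) or with array weights (-0.62, limma adjusted p = 0.0251). It was -0.22 (limma adjusted p = 0.439) without PBS replicate 2 and -0.24 (limma adjusted p = 0.421) without PBS replicate 4. Fst differed by -0.11 (SE 0.06, limma adjusted p = 0.226) between the labels.

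Whether the treatment difference itself differed between the labels was tested with an interaction term. None of the 10 members passed (smallest limma adjusted p = 0.999), and 0 of all genes did, with 473 (3.19%) at an unadjusted p under 0.05. For Mstn the difference in WT minus that in C57BL/6 was 0.67 (SE 0.34) and for Acvr2b 0.32 (SE 0.16), both with a limma adjusted p of 0.999.

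The sum of squares over the 8 arrays describes where each member varied, without a test. Treatment held 63.3% of it in Fst and 60.0% in Tgfbr2, beside a median of 11.5% over all genes. The label held 70.9% in Tgfbr1, beside a median of 28.0%. In Inhba and Tgfb1, 79.9% and 76.5% lay between arrays of the same treatment and label. Acvr2b had 40.6% in the combination of treatment and label.

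**Figure D3:**
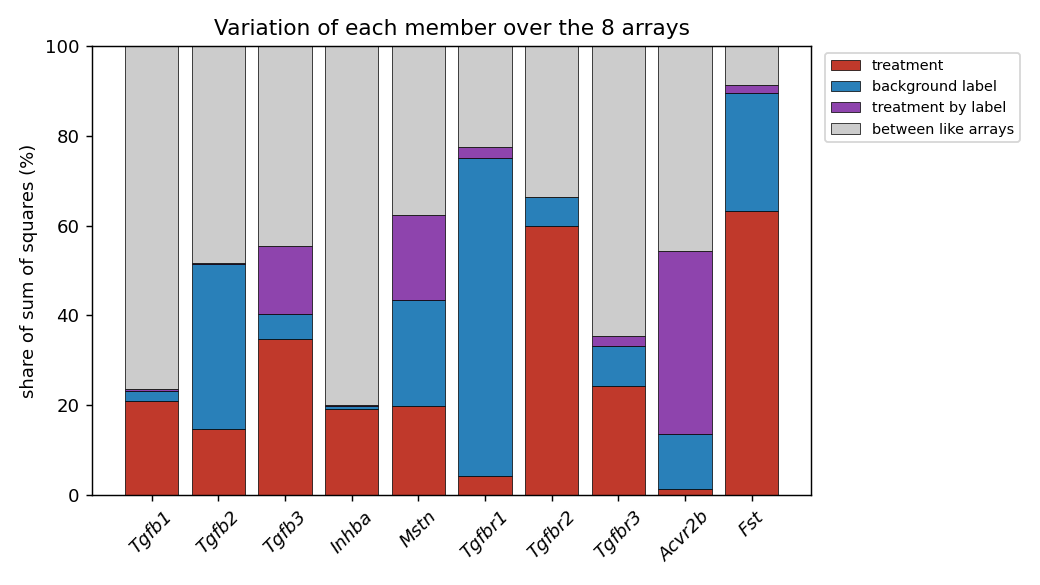
Share of each member's sum of squares over the 8 arrays (y axis, %) by treatment, background label, their combination and the rest between arrays alike in both. Treatment takes the largest share in Tgfbr2 and Fst, the label in Tgfbr1, and the rest in the other 7 members, most of all in Inhba and Tgfb1.

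The wider pathway was followed through 7 lists of genes by role, which hold 130 tested genes, 120 of them beside the members. None passed the threshold for treatment (smallest limma adjusted p = 0.489). Of the 120, 20 were lower and 2 higher at an unadjusted p under 0.05, beside 5.24% and 4.39% of all genes, and 79 were lower at any size. Some genes stand in more than 1 list.

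Of 24 superfamily ligands tested, 12 were lower and 12 higher, with a median difference of -0.01, which turned to 0.02 and 0.01 after quantile and cyclic loess normalization. The bone morphogenetic protein gene Bmp5 differed by -0.21 (SE 0.15), and by -0.04 without rIL-33 replicate 3. Of 18 receptors and co-receptors, 7 were lower and 11 higher (median 0.03). Endoglin (Eng), the TGF-beta co-receptor of endothelium, was at 10.23 to 10.40 with PBS and 9.82 to 10.19 with rIL-33, a difference of -0.33 (SE 0.10, limma adjusted p = 0.489) without overlap. Acvr2a, the second type II receptor of activins and myostatin, named after its values were seen, lay the other way: 8.83 to 8.95 with PBS and 9.01 to 9.18 with rIL-33, a difference of 0.17 (SE 0.07, limma adjusted p = 0.490), also without overlap. Of the 18, 1 was lower and 1 higher without overlap, beside 4.57% of all genes in either direction. Acvr1b, the type I receptor ALK4 of activins, differed by 0.23 (SE 0.13), with 0.04 and 0.42 within the C57BL/6 and WT labels.

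Among 17 extracellular antagonists and binding proteins, 15 were lower with rIL-33 (median -0.07), or 13 and 14 after quantile and cyclic loess normalization. Decorin (Dcn), a small proteoglycan that binds TGF-beta and myostatin, stood at 13.11 to 13.24 with PBS and at 12.85 to 12.94 with rIL-33. The groups did not overlap, and the difference was -0.28 (SE 0.07, limma adjusted p = 0.489). Of the 17, 2 were lower without overlap, Dcn and the member Fst, beside 2.13% of all genes. Follistatin-like 1 (Fstl1), a secreted glycoprotein of mesenchymal cells, differed by -0.55 (SE 0.15), with 12.02 to 12.71 on PBS arrays and 11.61 to 12.06 on rIL-33 arrays. Biglycan (Bgn), a proteoglycan related to decorin, differed by -0.34 (SE 0.13).

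In the list of latent TGF-beta storage and activation, 15 of 16 genes were lower, with a median of -0.18. Thrombospondin 1 (Thbs1), which activates latent TGF-beta, differed by -0.58 (SE 0.24), the microfibril gene Fbn2 by -0.45 (SE 0.13), and Lrrc32, which holds latent TGF-beta on the surface of regulatory T cells, by -0.34 (SE 0.13). These 3 had limma adjusted p between 0.489 and 0.498. The integrin subunit gene Itgb6, named after its value was seen, was the 1 higher gene, by 0.25 (SE 0.08). It lay at 10.07 to 10.21 with PBS and at 10.25 to 10.53 with rIL-33, without overlap. Of the 16, 1 was higher and 0 were lower without overlap, beside 4.57% of all genes in either direction.

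SMAD genes and their regulators were split, 11 lower and 9 higher of 20, with a median of -0.01 and 0 at an unadjusted p under 0.05 in either direction by limma. The largest differences were those of Zfyve9 (SARA), which brings SMADs to the receptor, at 0.29 (SE 0.16), the repressor gene Tgif1 at -0.22 (SE 0.11) and the SMAD phosphatase gene Ppm1a at 0.20 (SE 0.10). The downstream list of TGF-beta response genes stood lower: 20 of 26 were lower, with a median of -0.28. Of the 26, 10 were lower at an unadjusted limma p under 0.05, beside 5.24% of all genes. The list's summed intensity was 41211, 52034, 38209 and 53177 on rIL-33 replicates 1 to 4. On PBS replicates 1 to 4 it was 59187, 49024, 55798 and 60301. These sums overlapped, as rIL-33 replicates 2 and 4 lay above PBS replicate 2. The protease inhibitor gene Timp1 differed by -0.72 (SE 0.30), the collagen crosslinking enzyme gene Lox by -0.46 (SE 0.25) and the matrix protein gene Tgfbi by -0.45 (SE 0.16), with limma adjusted p between 0.489 and 0.570. Within the labels the list's median was -0.21 (C57BL/6) and -0.18 (WT).

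Markers of the cell types that whole muscle holds are given beside these lists. Of 12 tested markers of fibro-adipogenic progenitors (mesenchymal cells that lie between the muscle fibres), 11 were lower with rIL-33, where 52.0% of all genes were lower. Their summed intensity lay between 24083 and 27630 with PBS and between 18888 and 21920 with rIL-33, without overlap, and the lowest intensity of any of them was 265. As single genes, 6 of the 12 were lower and 0 higher without overlap, beside 2.13% of all genes lower. Dcn stands both in this list and in that of the antagonists. Of 13 macrophage markers 12 were lower, with sums of 20947 to 25022 with PBS and 16547 to 22162 with rIL-33. Of 12 mature muscle fibre markers 11 were higher, with sums of 106939 to 125115 and 115948 to 130734. Their median difference was 0.002 within the C57BL/6 label and 0.16 within the WT label. Of 9 markers of T and NK cells 8 were lower (median -0.35), with sums of 1614 to 3163 with PBS and 1143 to 1851 with rIL-33. PBS replicates 1 and 4, at 3163 and 2683, stood above the 6 other arrays. PBS replicates 2 and 3, at 1614 and 1625, lay within the rIL-33 range. All 3 tested neutrophil markers, of 8 listed, were lower (median -0.64), with sums of 391 to 1439 and 416 to 472. Here PBS replicates 3 and 4, at 1194 and 1439, stood above the 6 other arrays. The median difference of these neutrophil markers was 0.24 within the C57BL/6 label and -1.35 within the WT label. All 5 tendon cell markers were lower (median -0.19), with sums of 5970 to 7741 and 5298 to 6740, and so were 6 of 8 markers of smooth muscle and pericytes (median -0.15), or 7 after cyclic loess normalization, with sums of 10456 to 11988 and 7938 to 10759. Medians nearer 0 were found for endothelium (7 of 10 lower, -0.08, or 8 after quantile and cyclic loess normalization), regenerating fibres (7 of 7 lower, -0.05, or 6 after quantile normalization) and satellite cells and myoblasts (6 of 9 lower, -0.03). Of the markers of Schwann cells and of adipocytes, 2 of 4 were lower in each. None of these markers passed the threshold in limma, and the part of these cells in the pathway's values was not tested.

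Muscle genes under myostatin and activin control were divided evenly, 6 lower and 6 higher of 12 (median 0.01). Within the labels this median was -0.13 (C57BL/6) and 0.16 (WT). Igf1, a growth factor gene of muscle and macrophages, differed by -0.48 (SE 0.17), the myogenic factor gene Myog by -0.22 (SE 0.19) and Akt1, a kinase of growth signalling, by -0.11 (SE 0.10). The ubiquitin ligase genes of muscle atrophy Fbxo32 and Trim63, named after their values were seen, differed by 0.10 (SE 0.18) and 0.11 (SE 0.23).

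**Figure D4:**
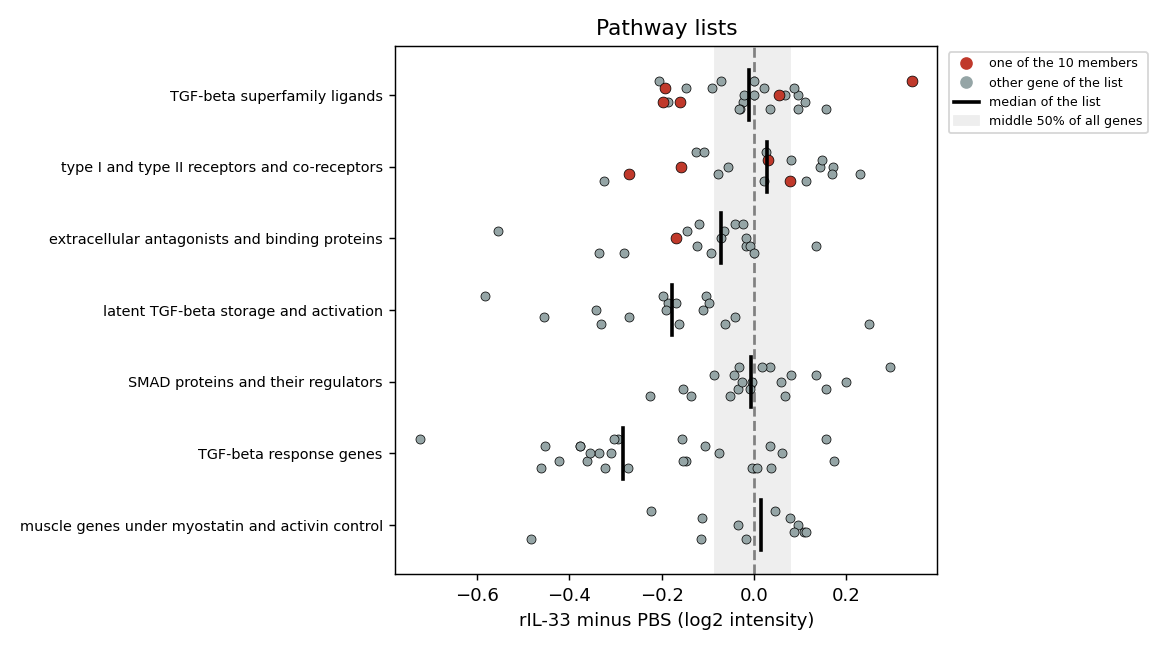
Difference of each tested gene of the 7 pathway lists, rIL-33 minus PBS (x axis, log2 intensity); red points are members, grey points other genes, black lines the median of each list, and the band holds the middle 50% of all genes. The lists of latent TGF-beta storage and of response genes have their medians, -0.18 and -0.28, left of the band, and no gene shown passed the threshold.

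For the 3 members with the widest spread over the 8 arrays, the tested genes with the closest pattern were found by the root mean square difference of log2 deviations. For Mstn, with an SD of 0.41, these were Mettl11b (0.07), Phkg1 (0.09) and Asb14 (0.10). Inhba, with an SD of 0.24, was closest to Tes (0.04), Zdhhc15 (0.05) and Pgm2 (0.08). For Tgfbr1, with an SD of 0.21, the nearest were Snx12, Rap1gds1 and Atp6v1c1, each at 0.05. None of these 9 genes passed the threshold for treatment in limma, with differences between -0.24 (Pgm2) and 0.46 (Asb14). They were picked for patterns close to those of members that did not pass, so this is not a separate result.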

How the data were processed

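Gene expression was measured on 8 Affymetrix Mouse Gene 1.0 ST arrays. The deposited intensities were made by the authors with Affymetrix Power Tools and RMA, as named in the submitters' processing notes (no versions are given). RMA removes background, equalises the arrays and sums up the probes of a set. It pulls folds of dim genes toward 0. The values were on a linear scale, so log2 was taken. The platform annotation gave 21425 of 24922 probe sets 1 symbol, 1399 several, and did not list 2098. Per gene the probe set of highest mean was used, and the 4938 genes under the 25th percentile of the mean (log2 6.65) were left out. Groups were compared with lmFit and eBayes (limma 3.58.1, R 4.3.3) and Benjamini-Hochberg adjustment over 14814 genes, after a check on simulated data. Label and interaction fits used the same genes. Alternatives were other normalizations, dim filters, variance models, array weights, blocks for label or replicate number, single labels, averaged probe sets, another threshold and each array left out. Single members were also set by an exact two-sided permutation test.

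The members, lists and tests were chosen with earlier results of these data known. Genes named were the members, in each pathway list those past the threshold or else the 3 of largest difference, and the 3 nearest genes of the 3 most variable members. Acvr2a, Itgb6, Fbxo32 and Trim63 were named after their values were seen, and Retnla as the 1 gene past the threshold. Of the lists' genes, those without a value were not analysed here. Python 3.11.15 with matplotlib 3.10.9 drew the figures.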

Additional observations from a re-analysis of the deposited data

Results flagged for a closer look

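The members and the named genes of the pathway lists, 32 genes in all, were searched in each group of 4 arrays for a highest or lowest array far from the rest (Dixon's 95% critical value for 4 samples, which chance passes in about 1 of 20 groups). Of 64 such groups, 2 stood out, and neither belonged to a member. Bmp5 was at 8.72 on rIL-33 replicate 3, while the other rIL-33 arrays lay at 9.39 or above. Fbn2 was at 7.50 on PBS replicate 2, against 7.95 or above on the other PBS arrays.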

How the results depend on the processing

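No member passed for treatment under any of the 20 alternatives run. Of 199 values of members under them, 193 kept their direction and 6 turned: Acvr2b (-0.052 with array weights, -0.13 within the C57BL/6 label, and as low as -0.022 and as high as 0.089 with single arrays left out) and Tgfbr1 (-0.017 without PBS replicate 3, up to 0.17 without other arrays). The cause was not tested. The dim filters, the other variance model, the blocks, averaged probe sets and the other threshold left each member's difference as it was. Values under these settings could not turn, and they are counted among the 193 that kept their direction. The 50th percentile filter left Inhba out. Over all genes, 1 passed for treatment, against 0 with the replicate block, 2 and 4 within the C57BL/6 and WT labels alone, and 1 to 2 with single arrays left out. Arrays that share a number correlated in their deviations from the group mean by 0.44, -0.19, 0.43 and 0.54 for numbers 1 to 4, and numbers 3 and 4, not 1 and 2, correlated best with their own. Arrays that share a number also share the background label, which these correlations do not remove. Since 1 of the 4 was under 0.1, the numbers were not taken as pairs. With the replicate block no member was called (Tgfbr2 adjusted p = 0.265 in limma). The label comparison placed 1392 genes past the threshold, 892 with the stricter dim filter, 3432 with array weights, 415 after quantile and 471 after cyclic loess normalization. It placed 10, 2509, 543 and 884 without rIL-33 replicates 1 to 4, and 52, 111, 21 and 12 without PBS replicates 1 to 4. Of the members, 1 passed there, against 2 with array weights, 0 after either normalization and 0 to 2 with single arrays left out. The interaction count of 0 (473 at an unadjusted limma p under 0.05) became 0 to 8 with single arrays left out. The number of arrays limits the precision throughout.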
